A study of Mus musculus with 18 samples.

Results

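The integrated stress response effectors described here are 9 genes, Atf4, Atf3, Atf5, Ddit3, Trib3, Chac1, Nupr1, Ppp1r15a and Ppp1r15b. They were taken by gene symbol from an RNA-Seq table of mouse liver that lists 37303 genes, and each symbol matched a single row. The samples were 18 livers in 6 groups of 3, from wild type (WT), Gcn2-/- and Atf4-/- mice given asparaginase (ASNase) or phosphate buffered saline (PBS). All mice were on the C57BL/6J background, and both deletions were carried in every cell of the body. ASNase breaks down asparagine and, to a lesser extent, glutamine in the blood. It was injected into the peritoneum once daily, 8 times, at 3 IU per gram body weight, and the control groups were injected with an equal volume of PBS. Livers were taken 7.5 h after an injection, from mice of 8 to 16 weeks by the sample characteristics and 8 to 12 weeks by the growth protocol. Of the 3 mice in a group, 1 was male in WT PBS, Gcn2-/- PBS and Gcn2-/- ASNase, and 2 were male in WT ASNase, Atf4-/- PBS and Atf4-/- ASNase. The Gcn2-/- mice lack the kinase in all organs, and the Atf4-/- mice are described by the study as lean, with defects of eye, bone and blood.

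In the integrated stress response, kinases that sense stress phosphorylate the translation initiation factor eIF2. GCN2, encoded by Eif2ak4, is the kinase that senses amino acid shortage, and PERK, encoded by Eif2ak3, senses unfolded protein in the endoplasmic reticulum (ER). Phosphorylated eIF2 slows most protein synthesis, while the mRNA of the transcription factor ATF4 is translated more. ATF4 switches on genes for amino acid synthesis and transport and the genes of further factors, among them ATF3, ATF5 and CHOP, the product of Ddit3. TRIB3 is a pseudokinase that binds ATF4 and CHOP. CHAC1 degrades glutathione, and NUPR1 is a small chromatin-binding cofactor. GADD34 and CReP, encoded by Ppp1r15a and Ppp1r15b, direct a phosphatase to eIF2 and so end the response. GADD34 is the inducible subunit and CReP the constitutive one.

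All 9 genes are protein coding, and their positions are given on GRCm38, the assembly also known as mm10. Atf4 lies on chromosome 15 (80255184-80257541, plus strand) and Atf3 on chromosome 1 (191170296-191218039, minus strand). Atf5 lies on chromosome 7 (44812256-44816658, minus strand) and Ddit3 on chromosome 10 (127290774-127296288, plus strand). Trib3 and Chac1 share chromosome 2 (152337422-152344032, minus strand, and 119351229-119354381, plus strand). Nupr1 and Ppp1r15a lie on chromosome 7 (126623249-126630861 and 45522916-45526268, both minus strand), and Ppp1r15b on chromosome 1 (133131143-133139783, plus strand). The exons of 4 of them overlap other annotated genes on the opposite strand, and the library kit named in the study's methods does not keep the strand. Ddit3 shares 68 of its 1713 exon bases with Mars, a methionyl-tRNA synthetase gene, and 13 with Gm4189. Atf5 shares 82 of 1993 with Nup62 and Il4i1, Ppp1r15a shares 12 of 2937 with Tulp2, and Ppp1r15b shares 640 of 5594 with Gm26616. Reads from those bases cannot be told apart by strand.

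Start regions are shown because 5 of these genes were higher together in ASNase-treated Atf4-/- liver, and the response has a known DNA element. This is the C/EBP-ATF response element (CARE), to which ATF4 binds with a C/EBP partner. RefSeq start regions, 250 bases before to 50 after a transcript start, were found for 8 of the 9 genes on GRCm38.p6 (2 for Atf5), and Ppp1r15b had no entry. The letters TGATGNAA, or TTNCATCA on the other strand, stood in the regions of Atf3, Chac1, Nupr1 and Trib3. Across all 32851 start regions, 3.97% held them, and 4.51% of the 27025 genes had a region that did. The 9 genes were chosen as effectors of this response, so their number of matches is a description and not a test. In the lines that follow the match is in capitals.

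Atf3, chr1:191183410-191183469, minus strand: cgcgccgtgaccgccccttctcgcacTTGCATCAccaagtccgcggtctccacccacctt
Chac1, chr2:119351023-119351082, plus strand: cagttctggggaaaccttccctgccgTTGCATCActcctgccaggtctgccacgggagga
Nupr1, chr7:126625547-126625606, minus strand: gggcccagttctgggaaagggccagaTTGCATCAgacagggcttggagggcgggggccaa
Trib3, chr2:152344028-152344057, minus strand: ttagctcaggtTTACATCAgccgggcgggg

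All 4 matches read TTNCATCA on the strand of the gene. Counted from the transcript start, they covered bases -110 to -103 in both Atf3 and Nupr1, -193 to -186 in Chac1 and 15 to 22 in Trib3. The first 3 share the narrower form TGATGCAA (TTGCATCA), present in 0.895% of all start regions. The RefSeq starts of Atf3 and Nupr1 lie inside the gene bounds given above, whose outer ends belong to longer annotated transcripts. That of Trib3 lies outside its bounds, so the match is past the RefSeq start but before the outer end of the GENCODE gene, 152344032 on this minus strand.

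A cyclic AMP response element (CRE), spelled TGACGTCA on either strand and recognised by factors of the ATF and CREB families, stood at bases -12 to -5 of Ppp1r15a. It was found in 1.79% of start regions. Atf3 held the related TTACGTCA at bases -10 to -3. The looser form TNACGTCA that covers both, chosen after the sequences had been read, was found in 2.93%.

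Ppp1r15a, chr7:45526269-45526306, minus strand: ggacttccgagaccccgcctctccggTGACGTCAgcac
Atf3, chr1:191183334-191183369, minus strand: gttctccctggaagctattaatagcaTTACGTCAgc

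The ER stress element (CCAAT and CCACG, 9 bases apart, either strand), which the unfolded protein response uses, stood in 0.119% of start regions and in none of these. Atf4, Atf5 and Ddit3 held none of the motifs searched in these windows. A match is a run of letters, and binding was not measured.

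**Figure D1:**
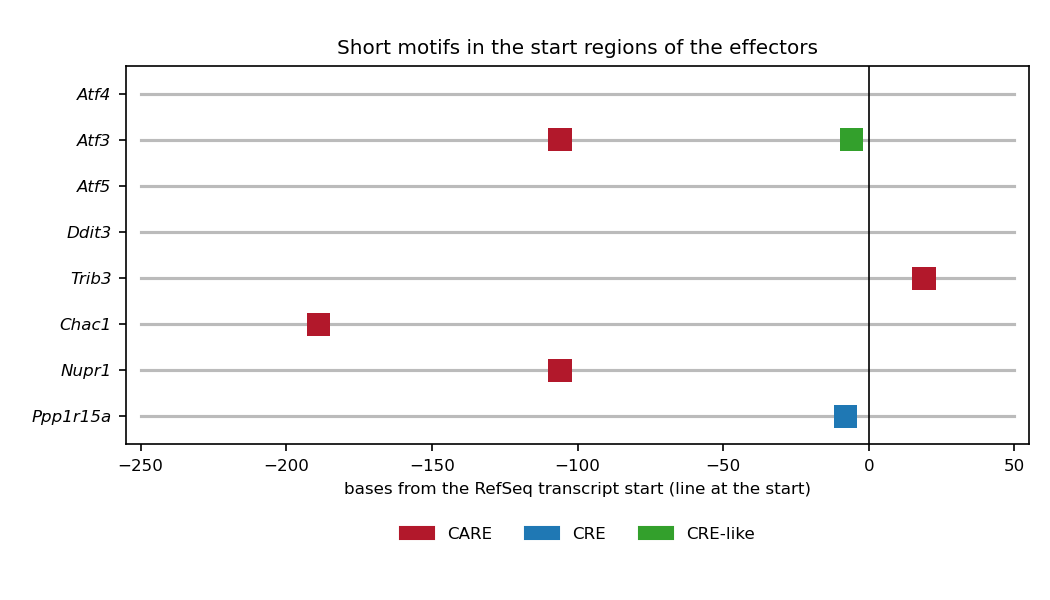
Positions of the motifs in the start regions of the 8 genes with a RefSeq entry, in bases from the transcript start, with the CARE letters in red, CRE in blue and the CRE-like letters of Atf3 in green. CARE letters lie at the same distance from the start, -110 to -103, in Atf3 and Nupr1, further from it in Chac1 and past the RefSeq start in Trib3, where the GENCODE gene starts further in.

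The deposited table gives 1 FPKM value a group (mapped fragments scaled to transcript length and to library size, so a level per length). Each was estimated by Cuffdiff from the 3 livers of a group together, with the lower and upper bound of an interval. No value of a single liver was available, so no difference below has a replicate check, no p-value was computed and n is 1 pooled estimate a group. Depth per library cannot be read from FPKM, and precision was taken from the intervals. The median distance from the value to its bounds was 55.9% to 66.7% of the value over the 9 genes, depending on the group, and 51.3% to 54.2% over all genes above an FPKM of 3. Groups were compared on log2(FPKM + 0.1), which understates the differences of low genes. A gene entered a comparison if each of its values was above 0 with the status OK and at least 1 of them exceeded an FPKM of 3. It was called higher or lower where the absolute log2 difference was also over 1.5 and the intervals of both values did not overlap. A gene under 3 in 1 group of a pair could thus only be called higher in the other.

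The gene-level values do not check the knockouts. Eif2ak4 lay between 2.19 and 3.14 FPKM in the 6 groups, at 2.31 and 2.96 in the Gcn2-/- groups, whose deletion leaves most of the transcript. Of 10 hepatocyte markers, 7 had the status OK in all groups and summed to 7571 to 19456 FPKM, while Alb had no estimate in any group. The sum was lowest in Atf4-/- ASNase (7571) and Gcn2-/- ASNase (9735), and a smaller share of hepatocytes and less of these mRNAs in each cell cannot be told apart in whole liver. Pancreatic acinar markers went from a summed FPKM of 13.5 with PBS to 70.3 with ASNase in WT, from 10.8 to 5.54 in Gcn2-/- and from 16.2 to 352 in Atf4-/- liver, with 9 of 10 over 1 in the WT and Atf4-/- ASNase groups and 6 listed at 0 in both Gcn2-/- groups. Cela1 alone made up most of the acinar sum in WT PBS, at 11.8 FPKM, and in Atf4-/- PBS, at 13.4. It did so in Gcn2-/- liver too, at 9.08 with PBS and 4.92 with ASNase, so the lower sum there was mainly that of Cela1. In WT ASNase Cela1 was at 14.9, below Ctrb1 at 19.7, and in Atf4-/- ASNase Ctrb1 was the highest, at 176. The amylase gene Amy2a5 was listed at 0 in 5 groups and at 0.042 in the sixth. Skeletal muscle markers summed to 838 and 1201 in WT and to 5.94 to 154 elsewhere, and lung markers to 135 in WT PBS and at most 3.19 elsewhere. Macrophage markers ranged from 138 to 372, highest in Gcn2-/- ASNase, and erythroid markers from 59.1 to 97.4 in 4 groups, with 10.1 in Gcn2-/- ASNase and 7.79 in Atf4-/- ASNase.

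Atf4 mRNA differed between ASNase and PBS by less than its intervals in each strain. Its level was 50.4 FPKM with PBS (interval 29.7 to 71.1) and 63.1 with ASNase (36.4 to 89.8) in WT, and 60.0 (35.1 to 85.0) and 68.1 (39.4 to 96.8) in Gcn2-/- liver. In the groups labelled Atf4-/- it was 32.3 with PBS (19.1 to 45.5) and 29.3 with ASNase (17.3 to 41.2). The Atf4-/- groups held the lowest values, but all 15 pairs of groups overlapped. The value is not near 0 in the groups labelled Atf4-/-, although the study describes Atf4 as absent from these mice by read density. The study also measured Atf4 mRNA by RT-qPCR and genotyped its animals by PCR. Its legend for a plot of Atf4 by RT-qPCR defines a mark for mRNA that was not detectible, without naming the group. The table gives no exon-level values, and why the gene-level value remains was not tested. Group names are those of the labels throughout.

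Atf3, a stress-induced repressor and activator of the ATF family, was low except in ASNase-treated Atf4-/- liver. It stood at 1.37 FPKM with PBS (0.186 to 2.55) and 3.14 with ASNase (0.900 to 5.39) in WT, and at 1.07 (0.238 to 1.90) and 3.60 (0.916 to 6.28) in Gcn2-/- liver. In Atf4-/- liver it went from 0.896 (0.218 to 1.57) to 13.3 (6.19 to 20.4). The last interval lay above those of 4 groups and overlapped that of Gcn2-/- ASNase between 6.19 and 6.28 FPKM.

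Atf5, a liver-enriched factor of the same family, was the most abundant of the 9 genes in every group. It was at 159.8 FPKM with PBS (84.9 to 235) and 209.9 with ASNase (101 to 319) in WT, and at 143 (73.7 to 212) and 88.4 (47.1 to 130) in Gcn2-/- liver. The Atf4-/- value was 80.0 with PBS (42.7 to 117) and 339 with ASNase (131 to 547). The highest value was separate from those of Atf4-/- PBS and Gcn2-/- ASNase and overlapped the other 3.

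Ddit3, encoding the pro-apoptotic factor CHOP, was highest in the same group but with wide intervals. It stood at 12.8 FPKM with PBS (0 to 28.8) and 18.7 with ASNase (0 to 37.7) in WT, and at 9.87 (0 to 21.7) and 15.1 (0 to 35.2) in Gcn2-/- liver. In the Atf4-/- groups it was 8.87 with PBS (0 to 18.3) and 73.1 with ASNase (4.79 to 141). The lower bound was 0 in 5 groups, and all 15 pairs overlapped. The authors' table places Ddit3 in a single locus with Mars, which was at 15.7 to 42.1 FPKM and at 31.1 in Atf4-/- ASNase.

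**Figure D2:**
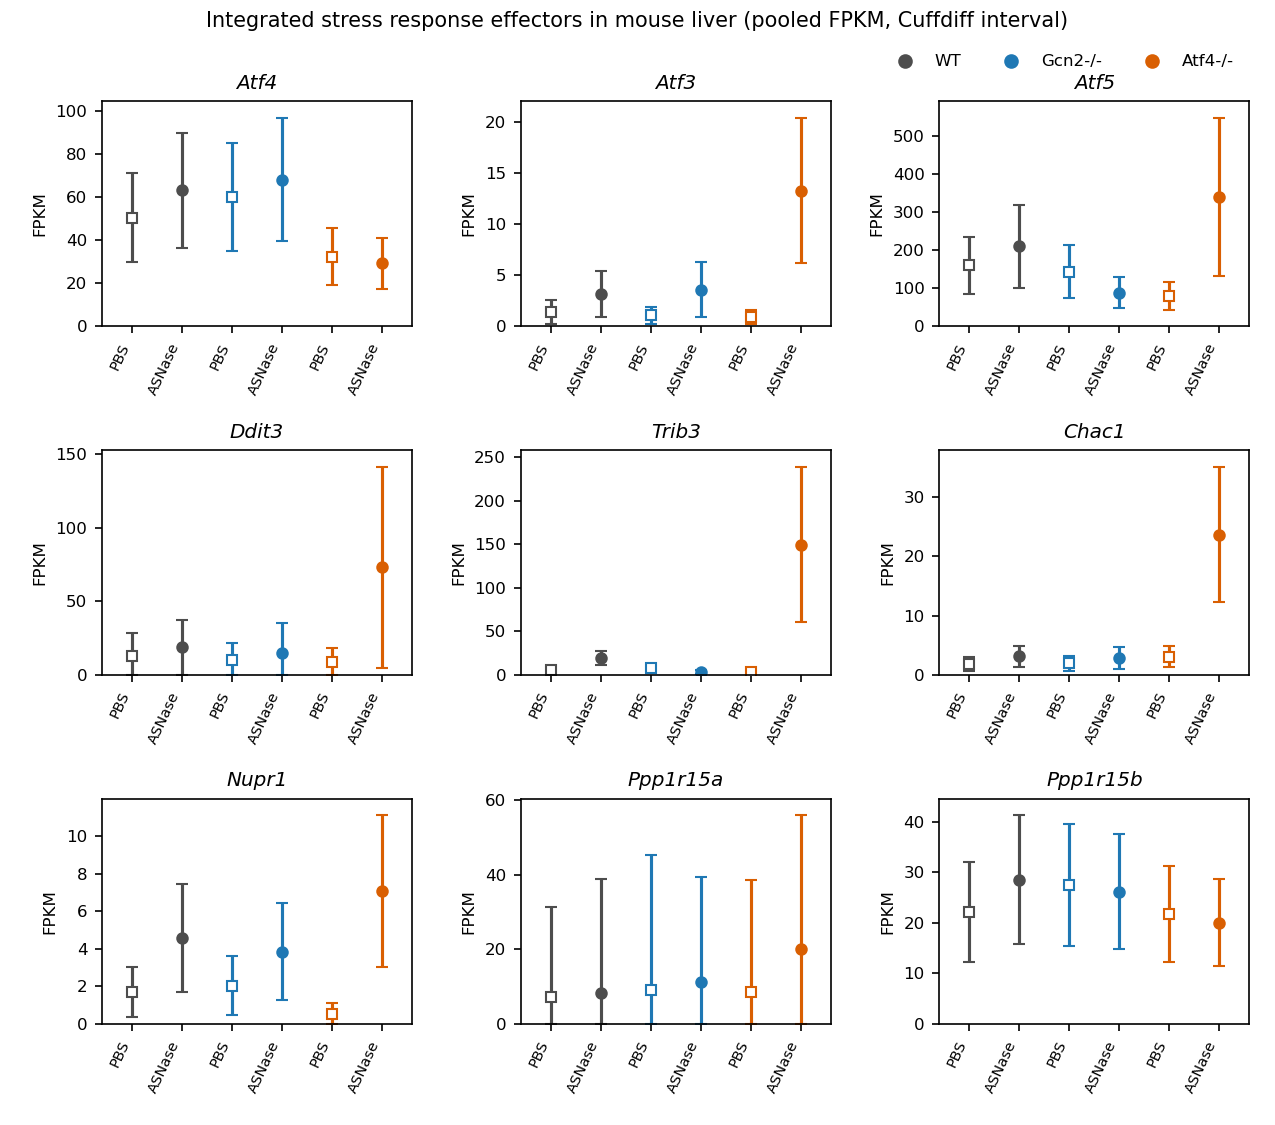
FPKM of the 9 genes in the 6 groups (open squares PBS, filled circles ASNase, each 1 pooled value of 3 livers), with the Cuffdiff interval as the bar and a separate linear axis from 0 for each gene. In 7 of the 9 panels the highest point is Atf4-/- ASNase, and Atf4 and Ppp1r15b have it as their lowest.

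Trib3 spanned the widest range of the 9 genes, 44.2-fold between its lowest and highest group. In WT liver it was 5.46 FPKM with PBS (2.80 to 8.13) and 19.5 with ASNase (11.4 to 27.7). In Gcn2-/- liver it went the other way, from 7.52 (3.87 to 11.2) to 3.39 (1.49 to 5.28). In the groups labelled Atf4-/- it was 3.63 with PBS (1.72 to 5.54) and 149.6 with ASNase (60.2 to 239). In descending order, Atf4-/- ASNase was separate from WT ASNase, and WT ASNase from Gcn2-/- PBS. The 4 lowest groups, Gcn2-/- PBS, WT PBS, Atf4-/- PBS and Gcn2-/- ASNase, overlapped one another.

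Nupr1 was low throughout. It was 1.69 FPKM with PBS (0.336 to 3.04) and 4.57 with ASNase (1.68 to 7.46) in WT, and 2.04 (0.454 to 3.62) and 3.85 (1.26 to 6.43) in Gcn2-/- liver. The Atf4-/- value was 0.501 with PBS (0 to 1.09) and 7.07 with ASNase (3.03 to 11.1). The Atf4-/- PBS group was the lowest, and its interval was separate from those of all 3 ASNase groups.

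Chac1 was near 2 to 3 FPKM in all groups but Atf4-/- ASNase. It was 1.81 with PBS (0.602 to 3.01) and 3.16 with ASNase (1.39 to 4.93) in WT, and 1.97 (0.657 to 3.28) and 2.89 (1.02 to 4.76) in Gcn2-/- liver. It was 3.06 in Atf4-/- PBS (1.29 to 4.82). In Atf4-/- ASNase, Chac1 was at 23.7 (12.3 to 35.2), separate from each of the other 5.

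Neither eIF2 phosphatase subunit was separate between any 2 groups. Ppp1r15a, the inducible one, was 7.09 FPKM with PBS (0 to 31.4) and 8.13 with ASNase (0 to 38.7) in WT, and 8.94 (0 to 45.3) and 11.3 (0 to 39.4) in Gcn2-/- liver. In the Atf4-/- groups it was 8.60 with PBS (0 to 38.5) and 20.1 with ASNase (0 to 55.9). Its lower bound was 0 in all 6 groups, so a difference of this size was not detectable for this gene. It shares a locus in the table with Dhdh, Tulp2 and the abundant Nucb1, which was at 66.0 to 92.3 FPKM.

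Ppp1r15b, the constitutive subunit, had the flattest profile of the 9 genes, with a 1.43-fold range. It was 22.1 FPKM with PBS (12.1 to 32.0) and 28.6 with ASNase (15.9 to 41.3) in WT, and 27.5 (15.4 to 39.7) and 26.2 (14.7 to 37.6) in Gcn2-/- liver, 21.8 in Atf4-/- PBS (12.3 to 31.3) and 20.0 in Atf4-/- ASNase (11.4 to 28.7). All pairs overlapped.

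The first comparison asked how the effectors respond to ASNase in WT liver. Trib3 was called higher, by 1.82 on the log2 scale (3.57-fold), and was the only one of the 9 genes called. Over all 9084 genes compared, 0.76% were called higher and 0.121% lower. The other 8 genes had higher values with ASNase too, but with overlapping intervals: Nupr1 by 1.38, Atf3 by 1.15, Chac1 by 0.77, Ddit3 by 0.54, Atf5 by 0.39, Ppp1r15b by 0.37, Atf4 by 0.32 and Ppp1r15a by 0.19. The median difference of the 9 genes was 0.54, against -0.0065 over all genes. Acinar markers moved with Trib3 in this comparison, from 13.5 to 70.3 in sum, as did the number of males, from 1 to 2 of 3, and their part in it was not tested.

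In Gcn2-/- liver none of the 8 genes compared was called, by a rule that called 1.56% of 9218 genes higher and 2.13% lower. No p-value stands behind this count, and a combined-error rule or a log2 limit of 1 called none either. Trib3 was lower with ASNase by a log2 difference of -1.13, just within its combined error of 1.13, and Atf5 by -0.69. Atf3 was higher by 1.66 and Nupr1 by 0.88, with overlapping intervals. Chac1 stayed under the FPKM limit in both groups and was not compared (0.53). Ddit3 (0.60), Ppp1r15a (0.34), Atf4 (0.18) and Ppp1r15b (-0.073) completed the set, and the median of the 8 genes compared was 0.26.

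In Atf4-/- liver 5 of the 9 genes were called higher with ASNase, against 2.74% of 9485 genes called higher and 4.63% lower. The log2 difference was 5.33 for Trib3 (41.2-fold), 3.75 for Atf3 (14.9-fold), 3.58 for Nupr1 (14.1-fold), 2.91 for Chac1 (7.75-fold) and 2.08 for Atf5 (4.23-fold). Atf3 and Nupr1 met the FPKM limit of 3 only through their ASNase values, so they could only be called higher. Without the FPKM minimum the same 5 genes were called. The PBS value of Nupr1 had a lower bound of 0, which leaves the size of its fold open upward. Ddit3 was higher by 3.03, with a combined error of 4.04, and Ppp1r15a by 1.22, with one of 7.95. Atf4 differed by -0.14 and Ppp1r15b by -0.12. The median over the 9 genes was 2.91, against 0.078 over all genes.

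Acinar markers went in sum from 16.2 to 352 in this comparison, led by Ctrb1, which went from 0.383 to 176 FPKM. The 7 hepatocyte markers went in sum from 16704 to 7571, the erythroid markers from 82.7 to 7.79 and the macrophage markers from 289 to 264. Their part in the higher effector levels was not tested.

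**Figure D3:**
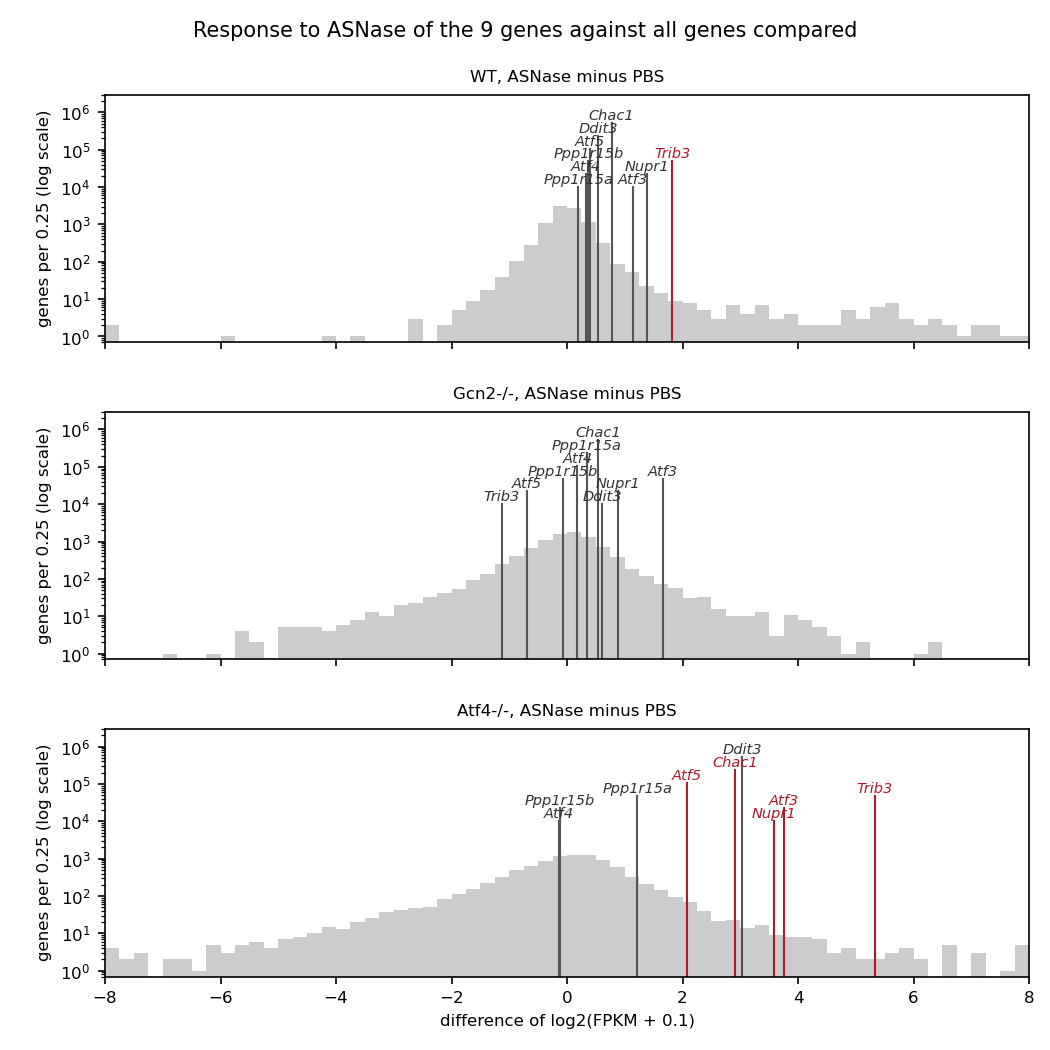
Number of genes (log axis) by their difference of log2(FPKM + 0.1), ASNase minus PBS, in each strain, with values past 8 in the end bins, and lines at the 9 effectors, red where called; the height of a line only spreads the names. In Atf4-/- liver 7 of the 9 lines stand right of 1, with Trib3 the furthest at 5.33.

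Without ASNase, none of the effectors was called in either knockout strain. Between Gcn2-/- PBS and WT PBS, 6 were compared and differed by -0.37 (Ddit3) to 0.45 (Trib3), while Atf3, Chac1 and Nupr1 were under the FPKM limit. Over all 8920 genes, 1.04% were called in either direction. Between Atf4-/- PBS and WT PBS, 7 were compared, against 1.12% of 9039 genes called in either direction. Atf5 was lower by a log2 difference of -0.996, with a combined error of 1.06, followed by Atf4 (-0.64), Trib3 (-0.57) and Ddit3 (-0.53). Chac1 was higher by 0.73. Nupr1, under the FPKM limit, differed by -1.57, with overlapping intervals.

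Among ASNase-treated livers, Trib3 was called lower in Gcn2-/- than in WT, by a log2 difference of -2.49, where 2.59% of 9423 genes were called lower. Its level was 0.174 times that of WT. Atf5 was next at -1.25, past its combined error of 1.19 but with overlapping intervals. The other 7 differed by -0.31 to 0.47. Skeletal muscle markers differed between these groups too (1201 in WT ASNase and 9.05 in Gcn2-/- ASNase), as did acinar markers (70.3 and 5.54). Males were 2 of 3 in WT ASNase and 1 of 3 in Gcn2-/- ASNase. The part of these markers and of sex in the Trib3 difference was not tested.

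In Atf4-/- ASNase against WT ASNase, 3 genes were called higher, Trib3 by 2.93, Chac1 by 2.87 and Atf3 by 2.05. Over 9577 genes, 2.59% were called higher. Ddit3 (1.96), Ppp1r15a (1.30), Atf5 (0.69) and Nupr1 (0.62) had higher values with overlapping intervals. Atf4 itself was lower, by a log2 difference of -1.11 with a combined error of 0.93, and its intervals overlapped between 36.4 and 41.2 FPKM. Acinar markers were at 70.3 and 352 and muscle markers at 1201 and 154 in these groups, and their part was not tested. The comparison shares its ASNase-treated groups with those above and is not independent of them.

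**Figure D4:**
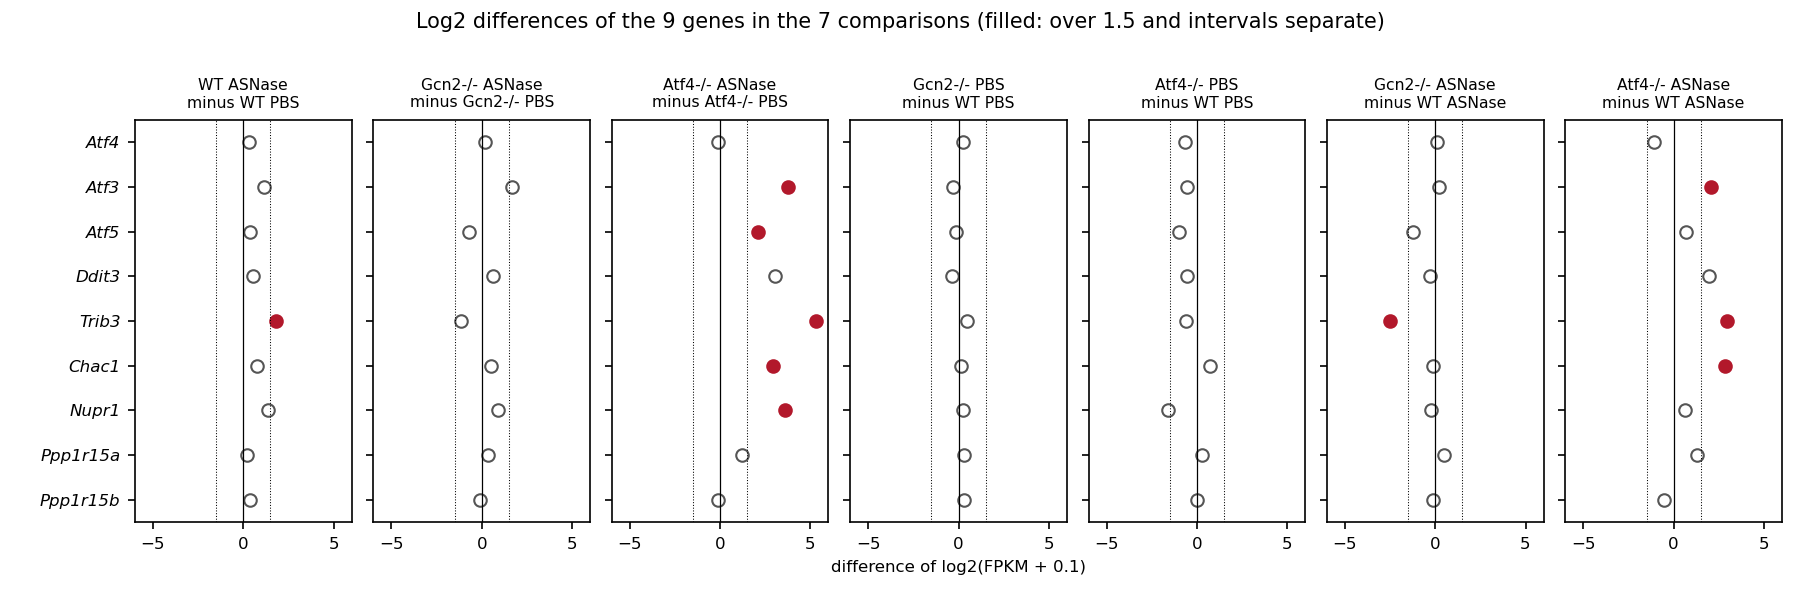
Differences of log2(FPKM + 0.1) of the 9 genes in the 7 comparisons, filled red where the gene was called and with dotted lines at -1.5 and 1.5. Trib3 is filled in 4 panels, on the left only for Gcn2-/- ASNase against WT ASNase (-2.49), and both panels of PBS-treated mice have no filled point.

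The response itself, the difference between ASNase and PBS, was also compared between strains. It is built from the same pooled values as the calls above and is not independent of them. A difference of responses was called where it was over 1.5 and over the combined error of its 4 values. Between Gcn2-/- and WT, Trib3 was called lower (-2.95, combined error 1.48), where 2.36% of 9523 genes were called lower. The remaining 8 differed by -1.09 (Atf5) to 0.51 (Atf3). The summed acinar markers were higher with ASNase in WT and Atf4-/- liver and lower in Gcn2-/- liver, as was Trib3. The part of acinar markers and of sex in these differences was not tested.

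Between Atf4-/- and WT, the responses of Trib3 (3.51, combined error 1.79) and Chac1 (2.14, combined error 1.94) were called larger, where 2.16% of 9698 genes were. Those of Atf3 (2.61), Ddit3 (2.49), Nupr1 (2.19) and Atf5 (1.69) were over 1.5 but within combined errors of 2.81, 8.16, 2.65 and 1.84. Between Atf4-/- and Gcn2-/-, the responses of 4 genes were called larger in Atf4-/- liver, Trib3 by 6.45, Atf5 by 2.77, Nupr1 by 2.69 and Chac1 by 2.38. Over 9684 genes, 1.22% were called so. The response of Ppp1r15b differed by -0.048 in this last comparison, and that of Atf4 by -0.32.

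A further list held 44 other targets of the integrated stress response, among them enzymes, transporters, tRNA synthetases and hormones. Over all genes compared, 0.76% were called higher with ASNase and 0.121% lower in WT liver. These shares were 1.56% and 2.13% in Gcn2-/- liver, and 2.74% and 4.63% in Atf4-/- liver. In WT liver 1 of 32 compared was higher with ASNase, Fgf21, a hepatokine (2.14 to 29.3 FPKM, log2 difference 3.71). In Gcn2-/- liver, with 30 compared, Fgf21 was called lower (8.31 to 0.782, -3.25) and Ddit4, a brake on mTORC1, higher (2.19 to 44.0, 4.27). In Atf4-/- liver 2 of 30 were called higher, the asparagine synthetase gene Asns (0.591 to 20.1, 4.87) and Ddit4 (4.96 to 53.3, 3.40). Fgf21, at 3.50 FPKM in Atf4-/- ASNase, was called lower than in WT ASNase by -3.03, whereas Trib3 was called higher there. Ddit4 was called lower in Gcn2-/- PBS than in WT PBS. It was called higher in Gcn2-/- ASNase and in Atf4-/- ASNase than in WT ASNase. The medians of this list were 0.28, 0.28 and 0.89 in WT, Gcn2-/- and Atf4-/- liver. None of its 13 genes of tRNA charging and export was called with ASNase in any strain.

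Of 21 genes of the other arms of the unfolded protein response, run by IRE1 and ATF6, 0 were called in WT liver with ASNase and the median was -0.51. In Gcn2-/- liver 3 were called higher, the ER folding factors Creld2 (26.2 to 87.9 FPKM) and Sdf2l1 (22.0 to 83.7) and the ER-associated degradation gene Derl3 (2.13 to 13.4), with a list median of 0.76. In Atf4-/- liver these 3 were called as well, Creld2 at 15.0 to 52.4, Sdf2l1 at 19.1 to 65.8 and Derl3 at 3.12 to 11.4, with a median of 1.06. The count was 3 of 21 in both knockout strains, and that of effectors 0 of 8 in Gcn2-/- and 5 of 9 in Atf4-/- liver. Over all genes compared, 1.56% were called higher in Gcn2-/- and 2.74% in Atf4-/- liver. Xbp1 was called higher in Atf4-/- ASNase than in WT ASNase (360 and 94.6 FPKM), but not with ASNase within the strain, where its intervals overlapped between 146 and 147 FPKM.

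Among 14 genes of the eIF2 kinases, eIF2 and its exchange factor eIF2B, Eif2b3 was called higher in Atf4-/- liver (5.51 to 16.0 FPKM). None was called in the other strains. Over all genes compared, 2.74% were called higher with ASNase in Atf4-/- liver, 1.56% in Gcn2-/- and 0.76% in WT. Of 8 genes tied to CHOP and cell death, 3 or 4 were expressed enough to compare. Gadd45a, a growth arrest gene, was called higher in Atf4-/- liver with ASNase, from 3.58 to 60.0 FPKM (4.03), and in the other strains went from 1.79 to 5.64 (WT) and from 7.33 to 2.57 (Gcn2-/-), where it was not called. These directions are the ones Trib3 had. All these lists were chosen with results of the data known, and their counts are a description.

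**Figure D5:**
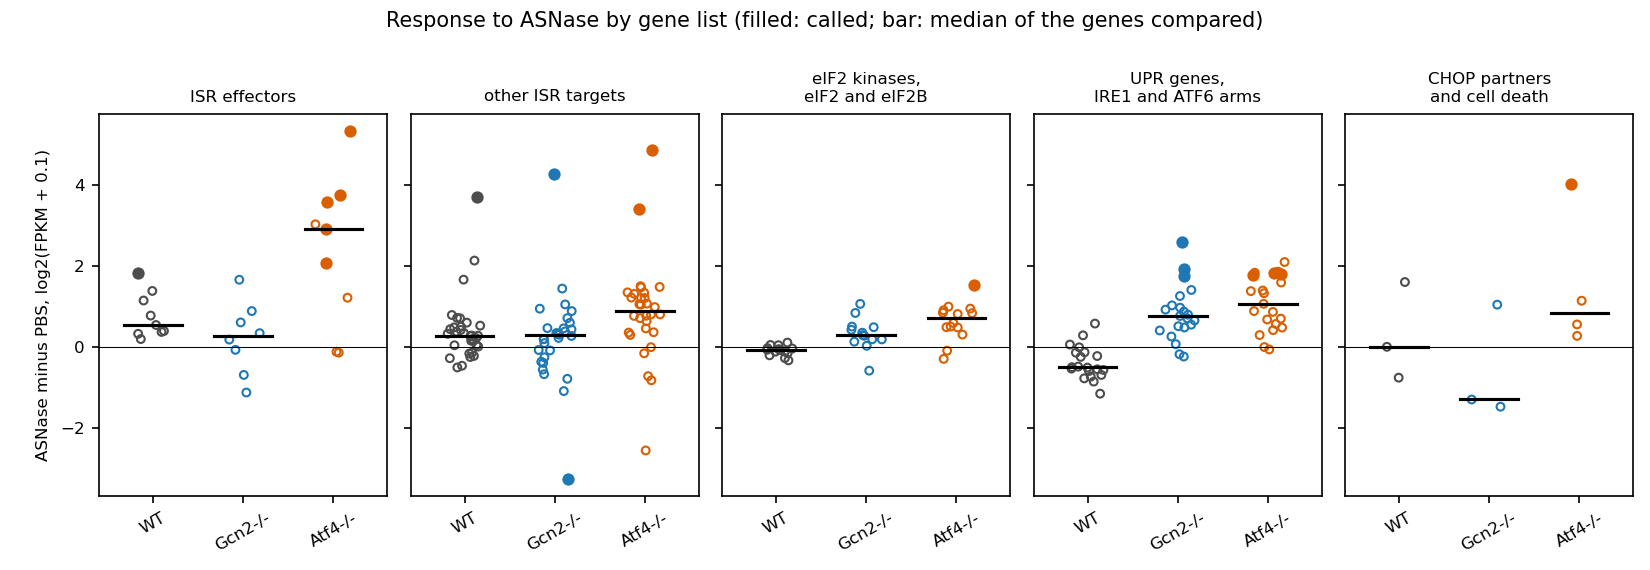
Response to ASNase (difference of log2(FPKM + 0.1)) of each gene compared, by list and strain, filled where called, with a bar at the median. The bar of the effectors stands at 0.54, 0.26 and 2.91 in WT, Gcn2-/- and Atf4-/- liver, and that of the unfolded protein response genes at -0.51, 0.76 and 1.06.

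The genes whose profile over the 6 groups was nearest to that of an effector were found by the Euclidean distance of centred log2 profiles among 9815 genes. A profile of 6 pooled values is a coarse measure, and likeness here says nothing of shared control. Asns was the nearest to Nupr1 (distance 1.04), Acot2 to Atf5 (0.42), Snhg12 to Chac1 (0.57) and Prdx3 to Atf4 (0.40). Snhg12, a noncoding host gene of small nucleolar RNAs, was at 12.7 to 18.0 FPKM in 5 groups and at 114 in Atf4-/- ASNase. Rap1gap2 was the nearest to Atf3 (0.85) and was among the 3 nearest to Ddit3 and Chac1, at levels of 0.177 to 3.16 FPKM. Ddit3 was nearest to Gm10812 (0.64).

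The nearest to Trib3 were Tff2 (1.64), AY036118 (1.65) and the pancreatic elastase gene Cela2a (1.76). These distances are not comparable between effectors, since a distance grows with the spread of the profile. Cela2a is one of the acinar markers and was at 0.926, 11.5, 1.49, 0.523, 1.92 and 33.9 FPKM in WT PBS, WT ASNase, Gcn2-/- PBS, Gcn2-/- ASNase, Atf4-/- PBS and Atf4-/- ASNase. Trib3 itself was at 5.46, 19.5, 7.52, 3.39, 3.63 and 149.6 FPKM in these groups. The acinar marker Ctrb1 was at 0.245, 19.7, 0.0192, 0.0180, 0.383 and 176 FPKM, in the same order. Levels of different genes do not show how much Trib3 mRNA came from acinar cells, and this was not tested. Ppp1r15b, whose profile was nearly flat, was nearest to Nek7 (0.17), and Ppp1r15a to Zfp653 (0.14).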

How the data were processed

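Poly-A RNA of 18 livers was sequenced as single-end reads. The authors aligned them to mm10 with TopHat and estimated FPKM with Cuffdiff after assembling and merging transcripts. The deposited table holds 1 FPKM value a group with the bounds of its interval and a status. All 18 value columns (6 groups, a value and 2 bounds each) were mapped to groups, and 0 were left out. FPKM carries no counts, so only the intervals give precision. Values of single livers were not used here, so no test, leave-one-out or p-value was possible. In their place a rule was applied to the whole table (FPKM over 3, log2 difference over 1.5 with a pseudocount of 0.1, separate intervals). The combined error is the root of the summed squared distances to the bounds on the log2 scale. Members, gene lists and rules were chosen with earlier results of these data known. Named genes were the 9 members, up to 3 called genes a list with the largest difference, the 3 nearest profiles of a member, and the targeted genes. Start regions are from RefSeq (GRCm38.p6) and exon overlaps from GENCODE M21. Python 3.11.15, numpy 2.4.6 and pandas 2.3.3 were used.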

Additional observations from a re-analysis of the deposited data

Results flagged for a closer look

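The response of Trib3 to ASNase ran in opposite directions in Gcn2-/- and WT liver, with a difference of -2.95 on the log2 scale, and in Atf4-/- and Gcn2-/- liver, with a difference of 6.45. Atf5 also went opposite ways in Atf4-/- and Gcn2-/- liver, by 2.77. These differences were not tested, since each group has 1 pooled value, and within Gcn2-/- liver neither gene was called. Acinar markers in sum ran in the directions of Trib3, from 13.5 to 70.3 in WT, 10.8 to 5.54 in Gcn2-/- and 16.2 to 352 in Atf4-/- liver. Their part was not tested.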

How the results depend on the processing

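Counts of called effectors were recomputed with pseudocounts of 1 and 0.01, without the FPKM minimum, with a combined error in place of separate intervals, with a log2 limit of 1, and after median-ratio and upper-quartile scaling. Of 70 recomputed counts, 69 stayed within 1.5 times, a wide limit for counts this small. With a pseudocount of 1, the response of Atf3 was also called larger in Atf4-/- liver. That made 3 in place of 2 effectors against WT and 5 in place of 4 against Gcn2-/- liver. Without a condition on the errors, 6 effectors in place of 2 had a larger response in Atf4-/- than in WT liver. Of 252 recomputed log2 differences, 0 moved past their combined error, and none of a called gene reversed. A reversal was counted only for called genes. The smallest combined error was 0.902, so scaling could hardly have moved a difference past it. Scaling moved the median of all genes by at most 0.035. No paired analysis was possible because the table holds 1 pooled value a group and no values of single libraries, so leaving out a replicate or blocking on it was not run. The intervals limit what can be told apart, with a lower bound of 0 in 5 groups for Ddit3 and in 6 for Ppp1r15a.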

Other observations

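Within a group, FPKM values of different genes can be set side by side, since they are per transcript length. The 9 effectors summed to 263 FPKM with PBS and 359 with ASNase in WT, 262 and 223 in Gcn2-/-, and 159.7 and 675 in Atf4-/- liver. Atf5 made up 39.7% to 60.9% of the sum. Trib3 was 1.52% to 5.44% of it in 5 groups and 22.2% in Atf4-/- ASNase. The level of Ppp1r15a was 0.284 to 0.433 times that of Ppp1r15b in 5 groups and 1.002 times in Atf4-/- ASNase, with the lower bound of Ppp1r15a at 0 throughout. Atf4 was above Trib3 and above Ddit3 in 5 groups, while in Atf4-/- ASNase Trib3 was at 5.11 times and Ddit3 at 2.50 times the Atf4 value. Atf4 is the deleted gene in that group, and the Ddit3 interval there (4.79 to 141) held that of Atf4 (17.3 to 41.2).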
